A study of Mus musculus with 3 samples.

Results

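The 32 genes described here are the transcription factor gene Atf4, a set of genes of the amino acid response that it directs, and the cytosolic aminoacyl-tRNA synthetases. They were found by gene symbol among the 24067 genes of the deposited FPKM table, and all 32 were present under the symbols listed, each in 1 row. They comprise 4 regulators of the response (Atf4, Ddit3, Trib3 and Chac1), 6 enzymes of serine, asparagine and one-carbon metabolism, 2 subunits of an amino acid transporter and 20 synthetase genes. All 32 passed a filter of a mean of at least 1 FPKM over the libraries, as did 10358 genes in all. FPKM is the number of sequenced fragments scaled to transcript length and to the number of mapped fragments, so levels can be compared between genes.

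ATF4 is translated when the initiation factor eIF2 is phosphorylated by kinases that sense uncharged tRNA, unfolded protein, haem shortage or double-stranded RNA. With C/EBP family partners it binds the C/EBP-ATF response element and raises transcription of genes for amino acid uptake, serine and asparagine synthesis, mitochondrial one-carbon metabolism and tRNA charging. Because control of ATF4 is largely translational, the Atf4 mRNA level is not a measure of the protein. The synthetases join each amino acid to its tRNA, and several of them sit in a large multi-synthetase complex.

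The cells were primary mouse pre-osteoclasts from bone, cultured with MCSF and RANKL for 2 days. Each of the 3 groups had 1 library: cells with Ift88 shRNA (genotype given as Ift88 knockdown) under orbital shear stress, cells with con shRNA (genotype given as WT) under orbital shear stress, and cells with con shRNA and no treatment, called static here. Orbital shear stress, fluid flow made by swirling the dish, lasted 24 hours. Every library carries an shRNA and had the same cytokines. Strain, age, sex, the number of animals and the way in which the shRNA was delivered are not given in the labels, and no static library with Ift88 shRNA is analysed here. A difference between the sheared Ift88 shRNA and static libraries therefore joins shear and knockdown.

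With 1 library per group there is no p-value and no replicate check for any difference, and each value describes these libraries only. Estimated depth was 35150000 fragments in the sheared Ift88 shRNA library, 35250000 in the sheared control and 34800000 in the static library. Ift88, which encodes a subunit of the intraflagellar transport machinery, stood at 1.197 FPKM in the Ift88 shRNA library, 2.71 FPKM in the sheared control and 2.98 FPKM in the static library. Of 12 osteoclast precursor markers 9 passed the filter, while Ocstamp, Calcr and Oscar lay below 1 FPKM in every library. The summed level of the 12 was 685 FPKM in the Ift88 shRNA library, 589.7 in the sheared control and 694 in the static library. Of the 9, 4 were lower and 1 higher in sheared against static cells by 1.2-fold or more in FPKM + 1, where 2.26% of all genes were lower and 1.94% higher. By the same rule 5 were higher and 0 lower with Ift88 shRNA against the sheared control, where 3.25% of all genes were higher and 2.29% lower. Acp5, the tartrate-resistant acid phosphatase of osteoclasts, was at 83.0 FPKM with Ift88 shRNA, 52.9 in the sheared control and 97.7 in static cells. Summed neutrophil markers (9 of 10 listed were in the table) were at 45.1 FPKM in the Ift88 shRNA, 43.4 in the sheared control and 77.6 in the static library. Of the 5 that passed the filter, all were lower in sheared than in static cells and 3 were counted as lower. Of all genes 53.9% were lower at any size and 2.26% were counted as lower. S100a8 was at 14.6 FPKM with Ift88 shRNA, 12.6 in the sheared control and 24.2 in static cells. S100a9 was at 8.38, 6.66 and 22.3 FPKM in the same order, and Ngp at 1.45, 1.01 and 4.36 FPKM. Csf3r and Mmp8 were closer between libraries, at 14.4 and 8.22 FPKM in the sheared control and 15.6 and 9.09 in static cells. Mpo and Elane, genes of early granulocyte precursors, were at 0 in the sheared control and at most 0.118 FPKM in the others. Summed stromal markers were at 9.87, 7.62 and 10.3 FPKM in the Ift88 shRNA, sheared control and static libraries. Of the 4 that passed, 3 were counted as lower in sheared against static cells (2.26% of all genes). With Ift88 shRNA against the sheared control 3 were counted as higher (3.25% of all genes). Cd4, the 1 lymphoid marker that passed, was at 11.8, 12.3 and 15.2 FPKM in the same order, counted as lower under shear. Kdr, the 1 endothelial marker that passed, was at 5.89, 4.83 and 5.63 FPKM. Erythroid markers were all at 0, and macrophage markers were at 2558, 2542 and 2600. Most of the macrophage sum came from Cd68, at 1783, 1799 and 1787 FPKM. Of the 8 macrophage markers 5 were lower and 3 higher in sheared than in static cells (median log2 ratio -0.18). Counted at 1.2-fold, 2 of them were lower and 0 higher. The part of these cell type markers in the results was not tested, and in bulk RNA fewer cells of a type and less RNA per cell cannot be told apart.

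Promoter sequences are shown first because the response element is the sequence that ATF4 binds with its partners. Binding was not measured here, and the element's core was not found for every member with a promoter sequence. RefSeq promoter windows of GRCm38.p6, from 250 bases before to 50 bases after an annotated start, were given for 24 of the 32 members. The windows of the 4 members with the largest sheared over static ratio among those with a window are printed 5′ to 3′ on the strand of the gene, with any match to the element core TGATGNAA or the E-box CACGTG, on either strand, in capitals. Base 251 of each is the start site.
Phgdh, chr3:98339920-98340219, minus strand: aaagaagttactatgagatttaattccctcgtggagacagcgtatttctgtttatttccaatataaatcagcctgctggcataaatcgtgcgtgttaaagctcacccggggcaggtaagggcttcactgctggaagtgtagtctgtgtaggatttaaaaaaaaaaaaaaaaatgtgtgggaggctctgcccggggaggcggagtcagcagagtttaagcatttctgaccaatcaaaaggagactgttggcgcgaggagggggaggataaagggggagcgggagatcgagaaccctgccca
Mthfd2, chr6:83317555-83317854, minus strand: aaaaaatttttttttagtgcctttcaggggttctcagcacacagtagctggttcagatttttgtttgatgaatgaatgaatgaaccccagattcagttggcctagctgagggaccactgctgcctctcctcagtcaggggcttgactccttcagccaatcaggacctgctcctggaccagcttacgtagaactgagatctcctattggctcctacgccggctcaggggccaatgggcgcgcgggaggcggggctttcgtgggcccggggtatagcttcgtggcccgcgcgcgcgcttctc
Psat1, chr19:15925010-15925309, minus strand: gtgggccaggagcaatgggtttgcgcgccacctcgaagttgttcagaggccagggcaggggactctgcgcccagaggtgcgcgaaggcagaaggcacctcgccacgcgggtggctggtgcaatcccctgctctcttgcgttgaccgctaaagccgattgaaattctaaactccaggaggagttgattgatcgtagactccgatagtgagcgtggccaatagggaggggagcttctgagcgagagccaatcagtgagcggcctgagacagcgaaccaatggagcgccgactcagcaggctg
Asns, chr6:7693160-7693459, minus strand: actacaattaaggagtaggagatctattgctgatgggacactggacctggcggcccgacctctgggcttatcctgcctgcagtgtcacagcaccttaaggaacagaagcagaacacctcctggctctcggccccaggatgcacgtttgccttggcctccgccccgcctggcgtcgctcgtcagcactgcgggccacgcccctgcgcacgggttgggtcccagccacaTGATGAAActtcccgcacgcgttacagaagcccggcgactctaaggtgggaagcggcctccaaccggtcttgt

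The Asns window holds 1 core match, and the windows of Phgdh, Mthfd2 and Psat1 hold neither motif. A second Psat1 start in the table also lacked both. The windows cover 300 bases only, so no match says only that these letters are not in the window. The Mthfd2 window, at 83317555 to 83317854, lies inside the gene span of 83305704 to 83326011, away from both ends. Windows of Slc3a2, Aars and Eprs also lie inside the gene spans. For these genes the sequence at the outer end of the gene was therefore not searched.

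The core was present in windows of 8 of the 24 members. A site from each is shown here as 30 bases, turned so that the core (in capitals) reads in the same direction, to let the variable base and the flanks be compared.
Chac1, chr2:119351038-119351067, minus strand: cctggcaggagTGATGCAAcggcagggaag
Trib3, chr2:152344028-152344057, plus strand: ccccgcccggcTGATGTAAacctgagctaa
Yars, chr4:129189895-129189924, plus strand: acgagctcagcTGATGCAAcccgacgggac
Asns, chr6:7693214-7693243, minus strand: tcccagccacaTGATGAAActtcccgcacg
Gars, chr6:55037960-55037989, minus strand: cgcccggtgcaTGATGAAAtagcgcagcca
Aars, chr8:111033840-111033869, minus strand: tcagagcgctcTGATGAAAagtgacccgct
Iars, chr13:49682126-49682155, minus strand: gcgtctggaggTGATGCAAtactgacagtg
Tars, chr15:11399655-11399684, plus strand: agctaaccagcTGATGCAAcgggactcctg

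In the sites shown the variable base was C in Chac1, Yars, Iars and Tars, A in Asns, Gars and Aars, and T in Trib3. The Aars core shown lay from bases 10 to 17 relative to the annotated start of its window, which lies inside the gene span. The Asns core lay from -23 to -16, the Gars core from -30 to -23, the Tars core from -15 to -8 and the Chac1 core from -193 to -186. Cores of Trib3 (15 to 22), Iars (8 to 15) and Yars (4 to 11) lay after the start site.

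Core matches were found in 32% of the 25 member windows, against 2.26% of the 10682 windows of genes that passed the expression filter and 3.97% of all 32851 windows. Among synthetases 5 of 13 windows held it. The E-box, a motif bound by MYC and related factors and searched in the same way, was in 16% of member windows, all 4 of them synthetases (Farsb, Aars, Iars and Tars), and in 10.6% of windows of expressed genes. The members include genes long known as ATF4 targets, so these shares describe the set and are not evidence from the libraries. Core and E-box matches did not overlap.

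**Figure D1:**
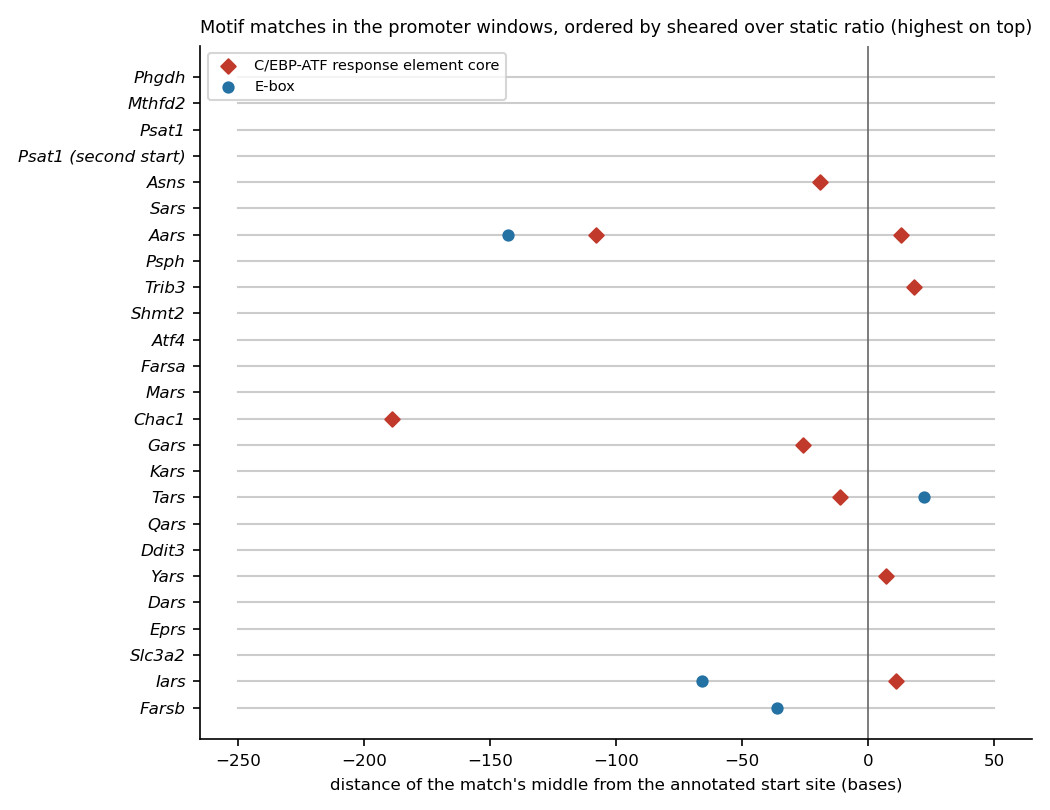
Position of each motif match in the 25 promoter windows, as the distance in bases of the match's middle from the annotated start site (grey lines span the window; red diamonds, response element core; blue circles, E-box). Genes run from the highest sheared over static ratio at the top to the lowest at the bottom. Most matches of the core lie close to the start site, and the top rows, Phgdh, Mthfd2 and Psat1, hold none. The windows of Mthfd2, Aars, Eprs and Slc3a2 lie inside the gene spans, away from the outer ends.

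Within each library the members spanned a wide range of levels. Slc3a2 had the highest mean over the 3 libraries, 231 FPKM, followed by Atf4 at 119.6 and Ddit3 at 110.5. The synthetases lay between Nars at 67.2 and Vars at 11.3 FPKM. The metabolic enzymes ran from Mthfd2 at 14.5 to Phgdh at 5.16, overlapping the lowest synthetases, and the lowest members were Slc7a5 at 4.28 and Chac1 at 1.29 FPKM. Slc3a2 and Slc7a5, which encode the heavy and light chains of a transporter, were thus far apart in level. How much of the heavy chain pairs with this or with other light chains was not measured.

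**Figure D2:**
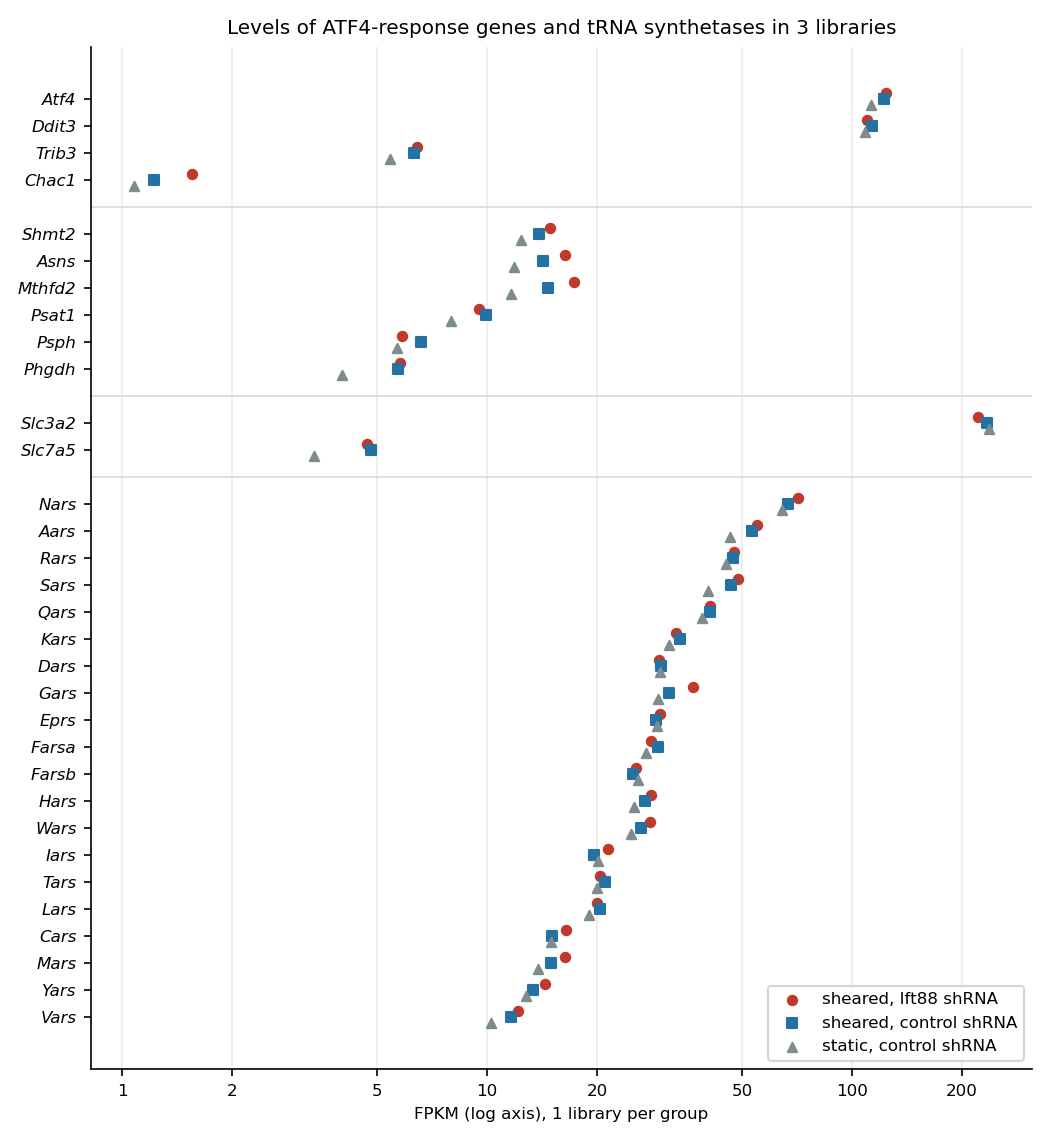
FPKM of the 32 genes on a log axis, with 1 point per library (red circles, sheared with Ift88 shRNA; blue squares, sheared with control shRNA; grey triangles, static with control shRNA). Grey lines divide regulators, enzymes, transporter subunits and synthetases. The static point is the lowest of the 3 for most genes, with gaps that are small against the range between genes.

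The first comparison asked what orbital shear was accompanied by in cells with con shRNA. The serine synthesis genes Phgdh and Psat1, the mitochondrial folate gene Mthfd2 and the transporter gene Slc7a5 were higher in sheared than in static cells by 1.25 to 1.43 times in FPKM. The other enzymes and most synthetases were higher by smaller amounts. Over all members 28 of 32 were higher and 4 lower at any size (26 higher and 6 lower with equal library totals), where 46% of all genes were higher and 53.9% lower, and the median log2 ratio of FPKM + 1 was 0.10 (all genes -0.011). A gene was counted as differing at 1.2-fold or more on this scale: 4 members were higher by that much and 0 lower, where 1.94% of all genes were higher and 2.26% lower.

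Phgdh encodes phosphoglycerate dehydrogenase, the entry enzyme of serine synthesis (chromosome 3, 98313171 to 98339969 in GRCm38, RefSeq). It was at 5.71 FPKM in sheared and 3.999 FPKM in static cells, a ratio of 1.43 (1.21 to 1.695; here and below, brackets hold the 95% Clopper-Pearson interval from estimated fragments, which covers counting error only). Psat1, the aminotransferase of the next step (chromosome 19, 15905123 to 15925059), was at 9.93 FPKM in sheared and 7.97 in static cells, a ratio of 1.25 (1.12 to 1.39). The last step belongs to the phosphatase gene Psph (chromosome 5, 129765558 to 129787443), which was at 6.61 FPKM in sheared and 5.66 in static cells. All 3 genes of the pathway were therefore higher in the sheared library, the first by the most. The ratio of Psph was 1.17 (1.0002 to 1.36), under the size that was counted.

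Shmt2 and Mthfd2 act in mitochondria, where SHMT2 splits serine into glycine and a one-carbon unit and MTHFD2 oxidises the folate that carries it. Mthfd2 (chromosome 6, 83305704 to 83326011) was at 14.7 FPKM in sheared and 11.6 in static cells, a ratio of 1.26 (1.15 to 1.39). Shmt2 was at 13.8 FPKM in sheared and 12.4 in static cells, a ratio of 1.12 (1.02 to 1.23). Asns, asparagine synthetase (chromosome 6, 7675165 to 7693209), was at 14.2 FPKM in sheared and 11.8 in static cells, with a ratio of 1.2 (1.09 to 1.32) and a log2 ratio of 0.24 on the FPKM + 1 scale, just under the size counted. All 6 enzymes were higher in sheared cells, where 46% of all genes were. All 6 counting intervals lay above 1, that of Psph barely, where 14% of all genes with an interval did. The median log2 ratio of the enzymes was 0.26, the highest of the groups with more than 2 members.

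A transporter of large neutral amino acids is a dimer of the light chain encoded by Slc7a5, which carries the substrate, and the heavy chain encoded by Slc3a2, which brings it to the membrane. Slc7a5 (chromosome 8, 121881146 to 121907686) was at 4.79 FPKM in sheared and 3.36 in static cells, a ratio of 1.43 (1.25 to 1.62). Slc3a2 (chromosome 19, 8706882 to 8723369) was at 234.3 FPKM in sheared and 237.4 in static cells, a ratio of 0.987 with an interval of 0.964 to 1.01. The counting intervals of the subunits did not overlap in the shear comparison, and the difference between their ratios was not tested.

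Among the regulators, the gaps were smaller. Atf4 (chromosome 15, 80255184 to 80257545) was at 122.3 FPKM in sheared and 112.8 in static cells, a ratio of 1.08 (1.05 to 1.12). Trib3, a pseudokinase gene induced by ATF4 that restrains it, was at 6.32 FPKM in sheared and 5.41 in static cells (ratio 1.17, 1.01 to 1.35). Ddit3, which encodes the stress transcription factor CHOP, was at 113 FPKM in sheared and 108 in static cells (ratio 1.04, 0.990 to 1.10). Chac1, a glutathione-degrading enzyme gene, was at 1.22 FPKM in sheared and 1.08 in static cells. It rests on an estimated 63 fragments in the sheared and 55 in the static library, so its ratio of 1.14 has an interval of 0.775 to 1.65.

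Of the 20 synthetase genes, 17 were higher under shear (median log2 ratio 0.081), and 0 reached the counted size. The largest ratios belonged to Sars (serine; 46.4 FPKM in sheared and 40.2 in static cells, ratio 1.16, 1.09 to 1.22), Aars (alanine; 53.1 and 46.1 FPKM in the same order, ratio 1.15, 1.12 to 1.18) and Vars (valine; 11.6 and 10.2 FPKM, ratio 1.14, 1.06 to 1.22). Then came Mars (methionine, ratio 1.08), Farsa (phenylalanine, alpha subunit, 1.08), Hars (histidine, 1.08), Lars (leucine, 1.08), Gars (glycine, 1.07), Kars (lysine, 1.07), Wars (tryptophan, 1.07), Tars (threonine, 1.06), Qars (glutamine, 1.05), Rars (arginine, 1.04), Yars (tyrosine, 1.04) and Nars (asparagine, 1.04). Cars (cysteine, 1.01) and Dars (aspartate, 1.01) were level. The 3 lower members were Eprs (glutamate and proline, ratio 0.992), Iars (isoleucine, 0.972) and Farsb (phenylalanine, beta subunit, 0.970), all with intervals that hold 1.

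Counting error was small enough to place many of these ratios. The interval lay above 1 for 20 of the 32 members and 11 of the 20 synthetases, and below 1 for 0, where 14% of all genes with an interval lay above and 17.9% below. Culture-to-culture variation is not in these intervals. The robust SD of the log2 ratio over all genes was 0.11, larger than the ratio of most synthetases, and 95.8% of all genes lay within 1.2-fold. The shear ratio also moved with base composition across genes (Spearman rho 0.34 with transcript GC content and -0.26 with length, over 10268 genes of these 2 libraries, given as a description). Centred in bins of length and GC content, the member median was 0.098 and 29 of 32 were higher.

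**Figure D3:**
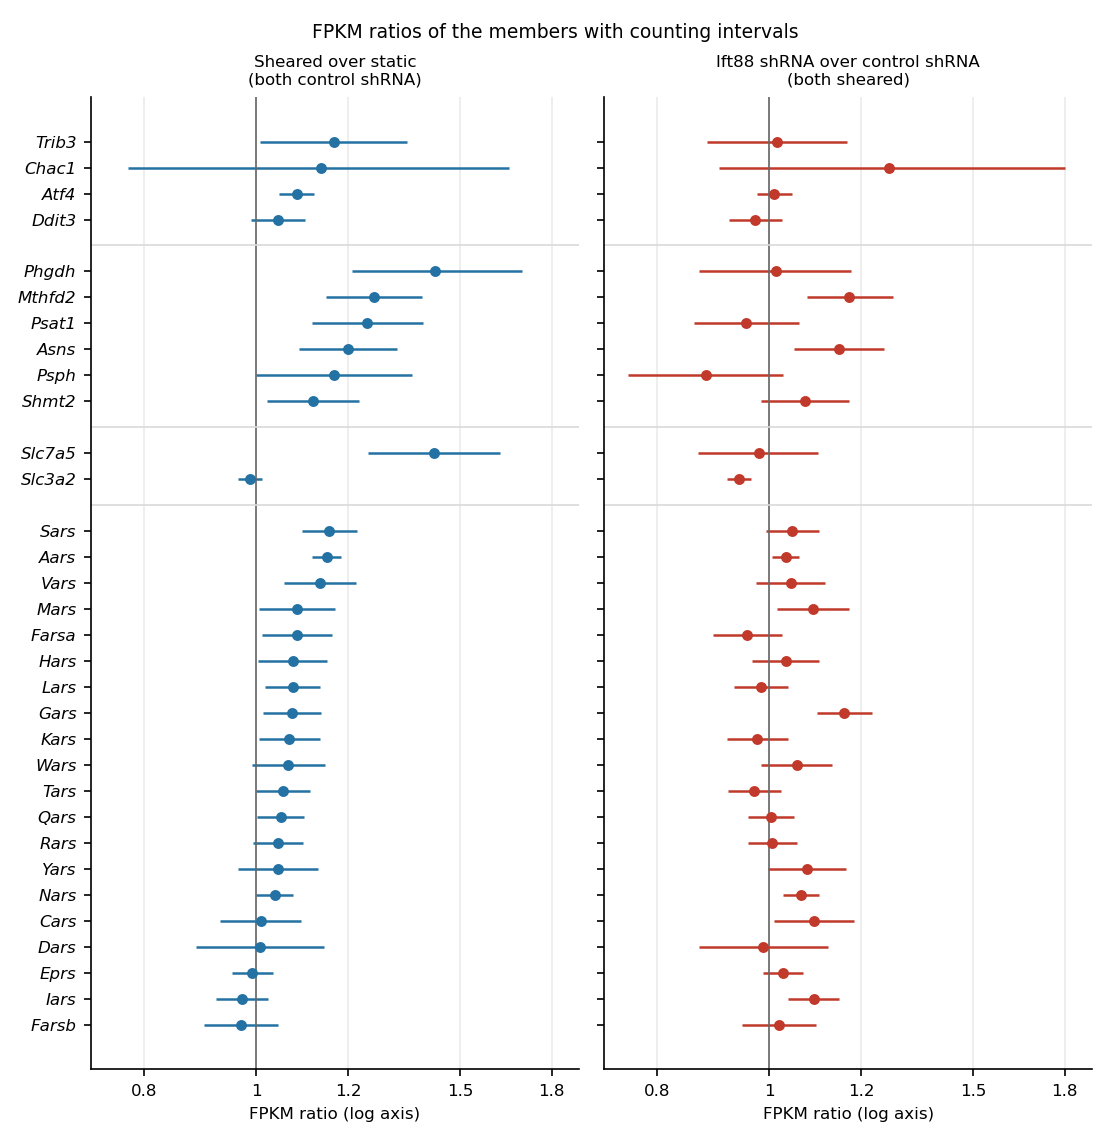
Ratio of FPKM for each gene on a log axis, sheared over static with control shRNA on the left and Ift88 shRNA over control shRNA under shear on the right. Points are ratios and lines are 95% counting intervals, with 1 library per group. On the left the points of all 6 enzymes lie right of 1, with Phgdh and Slc7a5 at about 1.43, and on the right the points lie on both sides of 1.

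The second comparison asked how the same genes stood with Ift88 shRNA against con shRNA, both under shear. Gars, Mthfd2 and Asns were higher with Ift88 shRNA by 1.15 to 1.17 times, and Slc3a2 was lower by a small amount. Of the 32 members 22 were higher and 10 lower (25 and 7 with equal library totals), where 53.6% of all genes were higher, and the median log2 ratio was 0.033 (all genes 0.010). At the 1.2-fold size 0 members were higher and 0 lower, where 3.25% of all genes were higher and 2.29% lower. Counting intervals lay above 1 for 8 members and below 1 for 1, where 18.4% and 13.5% of all genes did. The counts at 1.2-fold and of intervals above 1 thus stood near the background, while the share of intervals below 1 was smaller than over all genes.

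Mthfd2 was at 17.3 FPKM with Ift88 shRNA and 14.7 in the sheared control (ratio 1.17, 1.08 to 1.28). Asns was at 16.3 FPKM with Ift88 shRNA and 14.2 in the sheared control (ratio 1.15, 1.05 to 1.26). Gars, which in mouse as in human serves both cytosol and mitochondria (chromosome 6, 55038001 to 55079504), was at 36.6 FPKM with Ift88 shRNA and 31.5 in the sheared control (ratio 1.16, 1.10 to 1.23). These 3 genes had the highest ratios on the log2 scale, together with Chac1. Chac1 was at 1.56 FPKM with Ift88 shRNA and 1.22 in the sheared control, a ratio of 1.27 whose interval of 0.904 to 1.801 holds 1.

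The serine synthesis genes did not follow Mthfd2 in this comparison. Phgdh was at 5.79 FPKM with Ift88 shRNA and 5.71 in the sheared control (ratio 1.01, 0.869 to 1.18), and Psat1 at 9.49 and 9.93 FPKM in the same order (ratio 0.956, 0.860 to 1.06). Psph was at 5.83 FPKM with Ift88 shRNA and 6.61 in the sheared control (ratio 0.882, 0.755 to 1.03) and the lowest of the members. Slc7a5 was at 4.69 FPKM with Ift88 shRNA and 4.79 in the sheared control. Slc3a2 was at 220.5 FPKM with Ift88 shRNA and 234.3 in the sheared control (ratio 0.941, 0.919 to 0.964), the 1 interval below 1. Atf4 (123.5 and 122.3 FPKM) and Trib3 (6.41 and 6.32 FPKM) were nearly level, and Ddit3 was at 109.97 FPKM with Ift88 shRNA and 113 in the sheared control.

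Of the synthetases 15 of 20 were higher with Ift88 shRNA, with a median log2 ratio of 0.046. After Gars came Cars at 16.5 FPKM with Ift88 shRNA and 15.1 in the sheared control (ratio 1.09, 1.01 to 1.18) and Iars at 21.4 and 19.6 FPKM in the same order (ratio 1.09, 1.04 to 1.15). Mars was at 16.3 FPKM with Ift88 shRNA and 14.9 in the sheared control (ratio 1.09, 1.01 to 1.17). Under shear against static cells Cars and Iars had ratios of 1.01 and 0.972, while Mars was higher in both comparisons. The 5 lower synthetases were Farsa (ratio 0.957), Tars (0.970), Kars (0.976), Lars (0.983) and Dars (0.988), all with intervals that hold 1. The shear and knockdown comparisons share the sheared control library, so their ratios are set side by side and not correlated.

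**Figure D4:**
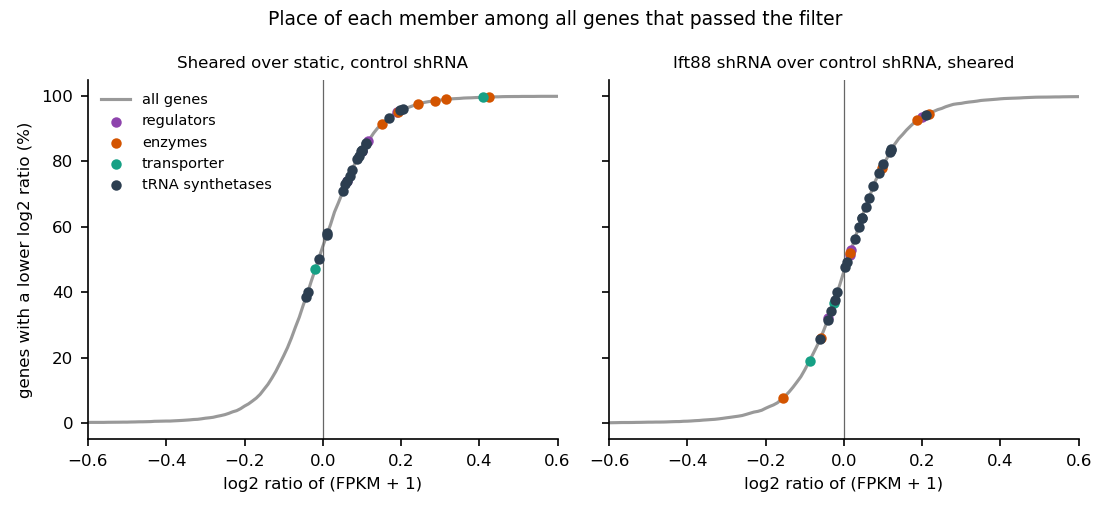
Percent of the 10358 genes that passed the filter with a lower log2 ratio of FPKM + 1 (vertical axis) against the log2 ratio (horizontal axis), for sheared over static with control shRNA on the left and Ift88 shRNA over control shRNA under shear on the right. The grey line is the cumulative curve of all genes and coloured points are members by role. On the left 28 of 32 points lie above 0 and Phgdh and Slc7a5 exceed 99% of genes; on the right points spread along the curve.

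Set against static cells, the sheared Ift88 shRNA library held the highest ratios for several members. Mthfd2 was at 17.3 FPKM there and 11.6 in static cells, a ratio of 1.482 (1.35 to 1.63). Counted at 1.2-fold were 7 members, Mthfd2, Phgdh (ratio 1.45), Asns (1.38), Slc7a5 (1.395), Gars (1.25), Chac1 (1.44) and Sars (1.21), and 0 were lower, where 4.79% of all genes were higher and 4.48% lower. At any size 29 of 32 were higher and 3 lower (49.8% and 50.1% of all genes), with a median log2 ratio of 0.14. Counting intervals lay above 1 for 22 members and below 1 for 1, where 21.3% and 19.6% of all genes did. For 19 of 32 members the level was highest in the sheared Ift88 shRNA library, then in the sheared control and lowest in static cells, an order that 20.7% of all genes had. For 8 members, Psat1, Psph, Slc7a5, Ddit3, Farsa, Kars, Lars and Tars, the sheared control was highest and static cells lowest. Slc3a2 had the reverse of the commonest order.

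Synthetases fall into structurally unrelated classes, and Eprs carries an active site of each. In the shear comparison 9 of 10 class II genes were higher (median log2 0.095) and 8 of 9 class I genes (median 0.068). With Ift88 shRNA against the sheared control 6 of 10 class II genes (median 0.037) and 8 of 9 class I genes (median 0.075) were higher. Members of the multi-synthetase complex (Dars, Eprs, Iars, Kars, Lars, Mars, Qars and Rars) had a shear median of 0.065, with 6 of 8 higher, and a knockdown median of 0.0063. The 12 synthetases outside it had a shear median of 0.094, with 11 higher, and a knockdown median of 0.060. Sars, with the highest synthetase ratio in the shear comparison, and Gars, with the highest in the knockdown comparison, lie outside the complex, while Iars and Mars, close behind Cars in the knockdown comparison, belong to it. These splits were not tested.

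Members that held the response element core in a promoter window (Chac1, Trib3, Yars, Asns, Gars, Aars, Iars and Tars) were compared with the 16 that had a window without it. In the shear comparison 7 of the 8 with the core were higher (median log2 0.099), and 13 of the 16 without it (median 0.11). Of all genes 46% were higher there. With Ift88 shRNA against the sheared control 7 of 8 with the core were higher (median 0.11), and 9 of 16 without it (median 0.0091). Of all genes 53.6% were higher there, so the members without the core stood near the background. The windows of Mthfd2, Slc3a2 and Eprs, without the core, and of Aars, with it, lie inside the gene spans. The sets therefore divide windows and not whole promoters. The difference between these sets was not tested, since genes are not replicates.

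Related gene lists placed the members in the wider pathway. The mitochondrial synthetases, a separate set of nuclear genes, did not show the pattern of the cytosolic ones in counts. Gars, which serves both compartments, was counted with the cytosolic genes only. In sheared against static cells 7 of 17 were higher (median log2 -0.042), where 46% of all genes were. With Ift88 shRNA against the sheared control 5 of 17 were higher (median -0.042), where 53.6% of all genes were. With Ift88 shRNA Ears2, the mitochondrial glutamyl-tRNA synthetase, was counted as lower than in the sheared control, at 1.59 and 2.21 FPKM. Of all genes 2.29% were counted as lower there. Against static cells Ears2 (2.38 FPKM in static cells) and Nars2 (1.34 FPKM with Ift88 shRNA and 1.84 in static cells) were counted as lower. Of all genes 4.48% were counted as lower in that comparison. The difference between cytosolic and mitochondrial sets was not tested.

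Among 26 measured other ATF4 targets, 16 were higher in sheared cells, where 46% of all genes were. At 1.2-fold 5 were counted as higher and 1 as lower, where 1.94% of all genes were higher and 2.26% lower. Cebpb, a C/EBP partner of ATF4, was at 71.1 FPKM in sheared and 54.4 in static cells, a ratio of 1.31 (1.24 to 1.38). Pck2, the mitochondrial phosphoenolpyruvate carboxykinase, was at 5.00 FPKM in sheared and 3.84 in static cells (ratio 1.30, 1.15 to 1.479). Atf5, a related transcription factor, was at 45.9 FPKM in sheared and 37.8 in static cells (ratio 1.22, 1.15 to 1.29). The stress cytokine gene Gdf15 was at 13.1 FPKM in sheared and 10.7 in static cells (ratio 1.23, 1.09 to 1.38). Sesn2, which signals leucine shortage to mTORC1, was at 10.9 FPKM in sheared and 8.91 in static cells (ratio 1.23, 1.13 to 1.33).

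The gene counted as lower was Jdp2, at 7.14 FPKM in sheared and 9.79 in static cells (ratio 0.729, 0.633 to 0.839), which also has a part in osteoclast differentiation. With Ift88 shRNA Jdp2 stood at 11.1 FPKM and in the sheared control at 7.14, and the cystine transporter gene Slc7a11 at 5.14 and 3.98 FPKM in the same order (ratio 1.29, 1.199 to 1.39). Nfe2l1, a transcription factor gene of proteasome supply, was counted as lower, at 51.6 FPKM with Ift88 shRNA and 62.6 in the sheared control. Of the 26 targets 13 were higher and 13 lower in that comparison, where 53.6% of all genes were higher and 46.4% lower. Against static cells, 6 targets were counted as higher in the sheared Ift88 shRNA library and 1 as lower. Of all genes 4.79% were counted as higher there and 4.48% as lower. The 6 higher targets were Ddit4 (FPKM ratio 1.36), Gdf15 (1.35), Slc7a11 (1.32), Cebpb (1.30), Atf5 (1.26) and Sesn2 (1.26). Atf3, a stress-induced repressor gene, was lower in the sheared Ift88 shRNA library, at 150.5 FPKM and 186.3 in static cells.

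Other amino acid transporters were higher in 9 of 16 in the shear comparison and 10 of 16 in the knockdown comparison, where 46% and 53.6% of all genes were. Slc1a4, a carrier of alanine, serine and cysteine, was at 1.32 FPKM in sheared and 0.816 in static cells, a ratio of 1.61 (1.27 to 2.08). The glutamine carrier gene Slc1a5 was at 20.1 FPKM with Ift88 shRNA and 16.6 in the sheared control (ratio 1.22, 1.14 to 1.30). The cationic amino acid transporter gene Slc7a1 was at 5.44 FPKM with Ift88 shRNA and 4.07 in static cells, and Slc7a7 was lower there, at 13.1 and 16.4 FPKM in the same order. The remaining enzymes of serine, glycine, folate and proline metabolism were divided, with 9 of 19 higher in sheared cells (median log2 -0.0055) and 0 counted.

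Upstream of ATF4 genes differed in both directions. The eIF2 kinases, phosphatase subunits and eIF2 and eIF2B genes were higher in 6 of 12 in sheared against static cells (median log2 -0.0045). In 7 of 12 they were higher with Ift88 shRNA against the sheared control, with 0 counted in each comparison. Their shear log2 ratios ran from -0.18 to 0.10. In that comparison 1 counting interval lay above 1 and 3 below 1, where 14% and 17.9% of all genes with an interval did. A list of endoplasmic reticulum chaperones also held related genes such as Xbp1, Edem1, Sel1l and Syvn1. Its genes were higher in 9 of 18 in sheared cells (median 5.08e-05) with 0 counted. Their intervals lay above 1 for 6 and below 1 for 4. The mTORC1 and GCN2 regulators had a shear median of 0.028, with Sesn2 counted, and Sesn1 was at 52.6 FPKM with Ift88 shRNA and 63.6 in static cells. Scaffolds of the synthetase complex and related genes had 7 of 9 higher in sheared cells (median 0.023) and 4 of 9 with Ift88 shRNA against the sheared control. Beside the lists of this paragraph, 46% of all genes were higher in sheared cells and 53.6% with Ift88 shRNA against the sheared control. Sesn2, Slc7a11, Xpot and Eif4ebp1 each stand in 2 of these lists.

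**Figure D5:**
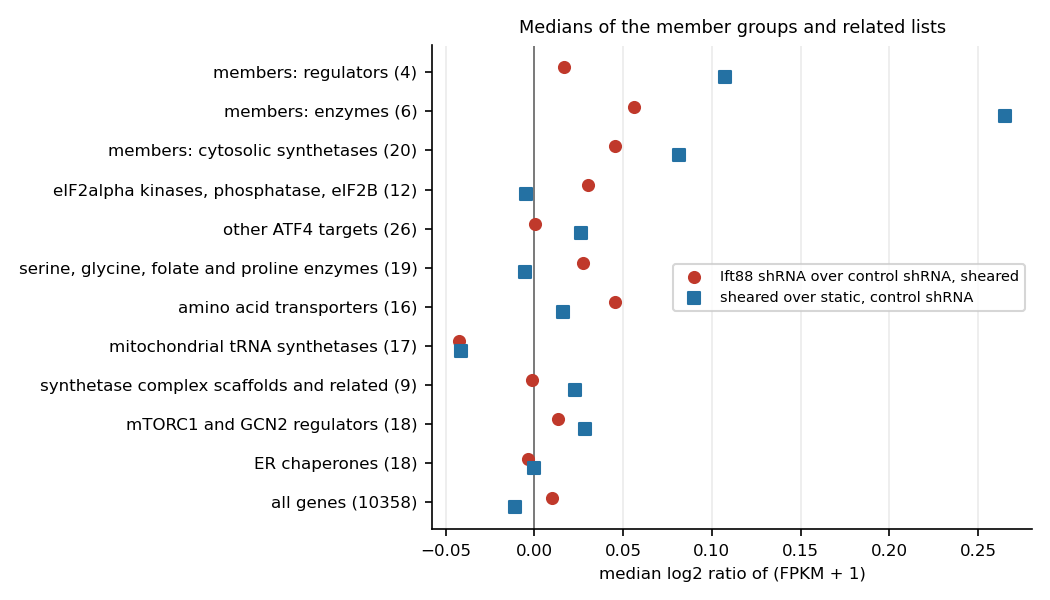
Median log2 ratio of FPKM + 1 for 3 groups of members, 8 related lists and all genes (red circles, Ift88 shRNA over control shRNA under shear; blue squares, sheared over static with control shRNA). Numbers of genes that passed the filter are in brackets. The enzymes stand at 0.26 in the shear comparison, and the mitochondrial synthetases at -0.042 in both.

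Some values are less certain than others. The counting of strand is not given in the sources used here, and Ddit3 and Mars overlap by 71 bases, Psph and Cct6a (48.7 FPKM in sheared and 51.6 in static cells) by 88 bases, and Aars and Ddx19b (3.92 and 4.30 FPKM) by 3974 bases of gene span. Phgdh and Kars each have a pseudogene in RefSeq, on chromosomes 7 and X, to which an estimate could assign reads.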

How the data were processed

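RNA was extracted with TRIzol and mRNA libraries were prepared with an Illumina TruSeq kit, per the labels' protocols. The authors deposited FPKM values per gene, 1 column per library, per the file headers. Cufflinks 2.2.1, TopHat2 2.0.13, Trimmomatic 0.32 and bcl2fastq 1.8.4 were used with build mm10, per the submitters' processing notes. Settings and strand handling: not given in the sources used here. FPKM is relative to the whole library, so abundant genes move all others.

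Genes with a mean of at least 1 FPKM over the 3 libraries were kept. Log2 ratios used FPKM + 1, a scale that understates differences of low genes, and a gene was counted at 1.2-fold. Ratios printed beside genes are plain FPKM ratios. Depth was estimated from the steps of low FPKM values of genes with 1 transcript of at least 1000 bases (GENCODE M21 lengths, estimated mean fragment length 180 bases). Of values up to 5.5 fragments 64.5% to 66.8% were whole within 0.1, so fragment numbers and the intervals from them are approximate. Fragments were computed from the shortest matched transcript, where over 500 bases, which widens intervals of genes with longer ones. No test was run, because each group had 1 library. Scripts (Python 3.11.15, scipy 1.17.1) were tested on simulated data.

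The members, related lists and rules were chosen with earlier results of these data known. Named genes were all members and, from each of 8 related lists, up to 5 genes per comparison at 1.2-fold. Ddit4 and Sesn2, in the comparison of sheared Ift88 shRNA with static cells, fell outside that rule and were named after their values were seen. RefSeq coordinates are of GRCm38, the assembly of mm10. Alternatives tried were other pseudocounts, filters, scalings, folds and a correction for length and GC content. The result for 1 named gene of the related lists and 1 promoter site are not reported here.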

Additional observations from a re-analysis of the deposited data

How the results depend on the processing

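Over the alternatives of pseudocount, filter and scaling, the median log2 ratio of the members lay between 0.083 and 0.11 for sheared over static, between 0.022 and 0.064 for Ift88 shRNA over control shRNA under shear, and between 0.12 and 0.16 for sheared Ift88 shRNA over static. No single member counted in a comparison turned its direction. The number counted as higher in sheared against static cells, 4, was 0 with a pseudocount of 5 FPKM, 0 at 1.5-fold and 0 at 2-fold, and 20 where the counting interval had to exclude 1. For Ift88 shRNA over control shRNA the number counted as higher, 0, was 1 with a pseudocount of 0.1 FPKM and 8 by the interval, which also counted 1 as lower. For sheared Ift88 shRNA over static the number, 7, was 3 with a pseudocount of 5 FPKM, 0 at 1.5-fold, 0 at 2-fold and 22 by the interval, which counted 1 as lower. With equal library totals 26 of 32 members were higher in sheared than in static cells and 25 of 32 with Ift88 shRNA than in the sheared control. No paired analysis was possible because each group has 1 library. Leaving out a replicate was likewise not possible, and depth limits Chac1 most.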
